A study of Mus musculus with 12 samples.

Results

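Genes of the exocrine and endocrine pancreas were followed, array by array, in the RNA of whole mouse duodenum. The set was a list of 35 genes named for digestive enzymes and other secreted proteins of acinar cells (28 genes), islet hormones (4 genes) and acinar transcription factors (3 genes). A gene was a member when a probe's accession mapped to it, and the brightest of its probes stood for it. Of the 35, 33 matched a probe (26 exocrine genes, all 4 hormones and all 3 factors), whereas Ctrc and Try10 were not matched and are not analysed here. All 33 passed the filter on dim probes, among 15583 named genes and 26107 features tested, and 31 were well above background on all 12 arrays. The exceptions were Ppy, not well above background on the arrays of wild-type vehicle 1 and knockout vehicle 1, and Ptf1a, not well above background on wild-type vehicle 1.

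RNA came from the duodenum of 12 male mice, 1 array per mouse, in 4 groups of 3. Wild-type or Akp3-/- mice, the latter called IAP knockout in the labels, received either vehicle (sodium carboxymethylcellulose at 5 g/L) or the pentapeptide IIAEK in the same vehicle, at a daily dose of 600 mg/kg. Dosing by mouth began at 7 weeks of age and lasted 14 days according to the titles, although some source labels name weeks instead, and all mice fasted for 8 h before the tissue was taken. IIAEK is described in the labels as lowering cholesterol, and Akp3 encodes an intestinal alkaline phosphatase of the duodenal brush border. The sources used here do not state the strain, or how the Akp3 allele was made. Levels below are log2 processed intensity minus the 75th percentile of the array, so that 0 is that percentile, and a difference of 1 is a doubling of intensity.

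The exocrine pancreas is built of acinar cells, which store digestive enzymes as inactive precursors in zymogen granules and release them into the duodenum through the pancreatic duct. Trypsinogen is activated in the gut lumen by enteropeptidase, an enzyme of the duodenal brush border, and trypsin then activates the other precursors. Islets of endocrine cells lie among the acini and release insulin, amylin and pancreatic polypeptide into the blood. In the mouse the pancreas is a diffuse organ that lies in the mesentery along the duodenum. In acinar cells, Ptf1a and its partner Rbpjl bind together to paired motifs, an E-box and a TGGGAA-type box, in front of many enzyme genes.

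To show the paired motifs named above, the promoters of 3 exocrine members are printed. RefSeq promoter windows of build GRCm38.p6 (250 bases before to 50 after the start of a gene) were found for 30 members, 24 of them exocrine. The letters CANNTG (the E-box) and TGGGAA were searched on both strands, and a pair was counted when the motifs did not overlap and at most 25 bases lay between them. A pair was present in 7 of 24 exocrine windows (29.2%: Cel, Cpa1, Ctrb1, Pnliprp1, Prss1, Reg1 and Reg2), against 6.09% of all 32851 windows. It was also present in 1 of 3 islet hormone windows (Ins1) and in 1 of 3 windows of transcription factors (Rbpjl). TGGGAA alone was in 62.5% of exocrine windows against 25.6% of all, CANNTG in 83.3% against 72.3%, and TATAAA, searched on the strand of the gene, in 45.8% against 8.32%. The 3 printed stretches are the 200 bases before the start on the plus strand, with the paired E-box and TGGGAA-type letters in capitals. They were chosen from the windows with a pair, after the levels had been seen. Cpa1 and Prss1 were far lower on 1 array than on the others, and Reg1 was only slightly lower.
Cpa1, chr6:30639018-30639217: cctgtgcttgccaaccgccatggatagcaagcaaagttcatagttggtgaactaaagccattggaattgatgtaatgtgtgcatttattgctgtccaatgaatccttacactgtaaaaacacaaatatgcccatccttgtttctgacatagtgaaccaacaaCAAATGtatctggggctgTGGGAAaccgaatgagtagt
Prss1, chr6:41458730-41458929: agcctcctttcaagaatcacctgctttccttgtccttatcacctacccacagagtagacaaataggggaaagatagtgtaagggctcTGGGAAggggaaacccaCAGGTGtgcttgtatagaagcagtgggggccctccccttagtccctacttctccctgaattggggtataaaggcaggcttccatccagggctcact
Reg1, chr6:78425783-78425982: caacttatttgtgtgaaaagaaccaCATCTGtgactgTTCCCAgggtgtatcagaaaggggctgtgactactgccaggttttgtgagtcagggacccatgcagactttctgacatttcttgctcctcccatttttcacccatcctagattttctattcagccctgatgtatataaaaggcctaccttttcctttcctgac
Counted from the gene's start, the printed E-box of Cpa1 began at -38 and its TGGGAA at -20. The window of Cpa1 held 2 pairs, and the other paired E-box, CAGCTG, lies after the start and is not printed. Prss1 had its E-box at -96 and its TGGGAA at -113. Reg1 had its E-box at -175 and TTCCCA, the other strand of TGGGAA, at -163. These matches describe letters only, and binding was not measured. Whether the motifs bear on the levels by array was not tested.

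Before the members are taken in turn, the arrays need to be described. Akp3 separated the genotypes: on 2 probes its level was between 1.05 and 2.72 on the 6 wild-type arrays and between -6.76 and -3.80 on the 6 knockout arrays. One of these probes was still well above background on 3 of the 6 knockout arrays, and the other on 0 of them. Where these probes lie relative to the altered part of the gene is not stated in the sources used here. Enterocyte genes, which define the labelled tissue, averaged between 7.49 and 8.14 (8 genes such as Fabp1, Fabp2 and Apoa4). Arrays came from 2 slides scanned separately, slide 1 with 7 arrays (wild-type vehicle 1 and 2, wild-type IIAEK 1 and 2, knockout vehicle 1, knockout IIAEK 1 and 2) and slide 2 with the other 5. The share of probes well above background ranged from 55.9% to 64.0%, the 75th percentile of intensity ranged from 195 to 465, and 0 probes were saturated. Both of these measures were highest on wild-type vehicle 1 and next highest on knockout vehicle 1, the arrays on which the members were lowest.

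Pancreatic transcripts were present on every array, and a single array, wild-type vehicle 1, stood far below the other 11. The 26 exocrine genes averaged 2.73, 8.32 and 8.37 in wild-type vehicle mice, 7.69, 8.35 and 8.72 in wild-type IIAEK mice, 7.16, 9.15 and 8.95 in knockout vehicle mice, and 8.81, 8.31 and 8.08 in knockout IIAEK mice. All 33 members were lowest on wild-type vehicle 1, whereas 9.75% of all features were lowest there. The difference between that array and a gene's own median over the other 11 arrays had a median of -6.18 over the members and of -0.02 over all features. The difference was below -3 for 28 of the 33 members and for 123 features in all (0.471%). Among the remaining 11 arrays, 31 members were lowest on knockout vehicle 1, against 7.79% of all features. The exceptions were Reg1, lowest on knockout IIAEK 3, and Reg2, lowest on wild-type IIAEK 1. Both low arrays were on slide 1. The other 5 arrays of slide 1 had exocrine averages between 7.69 and 8.81, and the 5 arrays of slide 2 between 8.08 and 9.15. In RNA of a whole tissue, fewer cells of a type and less RNA per cell cannot be told apart.

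**Figure D1:**
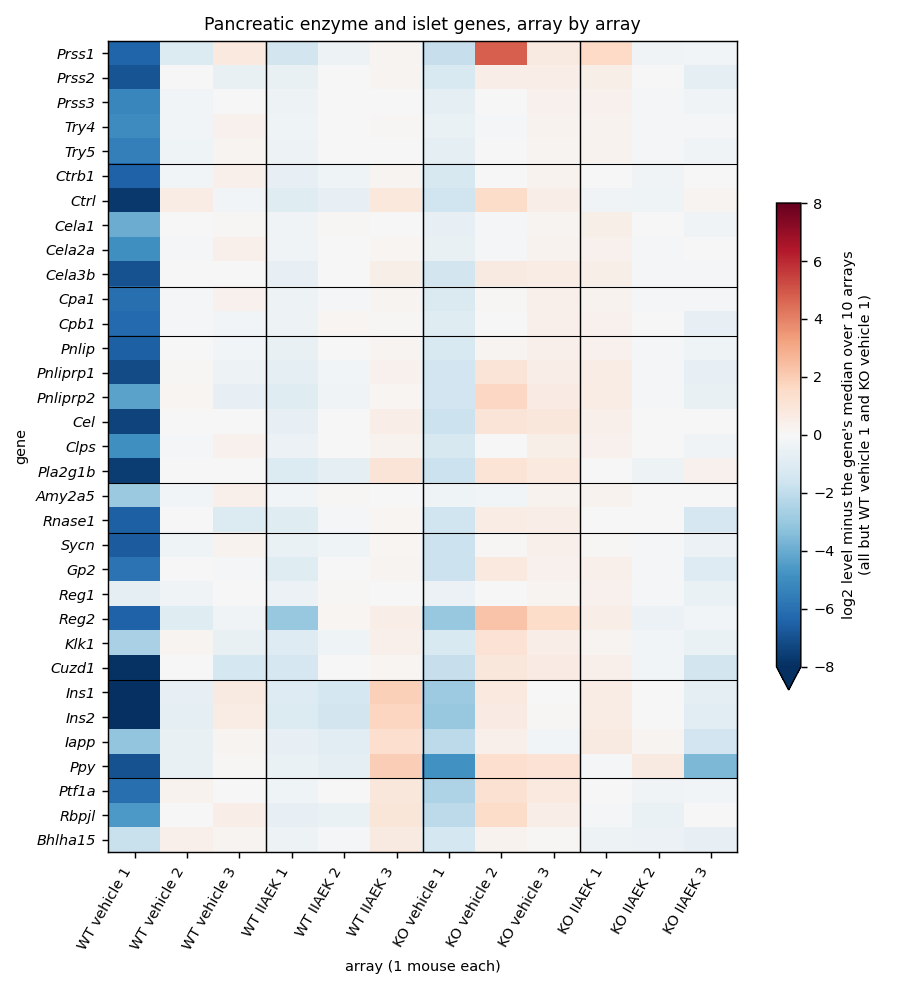
Level of each of the 33 measured members on each of the 12 arrays, as a log2 difference from the gene's median over the 10 arrays other than wild-type vehicle 1 and knockout vehicle 1; blue is lower and red higher, and rows are grouped by role. The column of wild-type vehicle 1 is lowest in every row, and knockout vehicle 1 is the next lowest in 31 rows.

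Trypsinogens are the precursors of trypsin. Prss2, an anionic trypsinogen, had levels of 2.76, 9.62 and 9.09 in wild-type vehicle mice, 9.10, 9.68 and 9.88 in wild-type IIAEK mice, 8.48, 10.22 and 10.22 in knockout vehicle mice, and 10.15, 9.66 and 8.95 in knockout IIAEK mice. The first array was low, with the median of the other 11 being 119-fold its intensity, and all 4 groups overlapped. Prss1 stood at -2.91, 2.42 and 4.25, then 2.03, 3.09 and 3.71, then 1.66, 8.27 and 4.23, and finally 5.10, 3.20 and 3.27, in the same order of groups. Besides the low first array, Prss1 was high on knockout vehicle 2, where Prss3, Try4 and Try5 were within the range of their other arrays. Prss3, Try4 and Try5 were between 9.05 and 10.32 on the other 11 arrays, and 4.65, 4.57 and 4.60 on wild-type vehicle 1. Their standard deviation (SD) over the 11 arrays was 0.31, 0.27 and 0.32. These trypsinogen genes are close copies, so a probe may also read the transcript of another copy and the assignment to a single gene is uncertain.

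Chymotrypsinogens and elastases, which cut proteins after large or small side chains, were likewise lowest on wild-type vehicle 1 and next lowest on knockout vehicle 1. Ctrl, a chymotrypsin-like protease, had levels of -0.48, 7.84 and 7.0 in wild-type vehicle mice, 6.29, 6.56 and 8.10 in wild-type IIAEK mice, 5.61, 8.71 and 7.76 in knockout vehicle mice, and 6.95, 6.89 and 7.47 in knockout IIAEK mice. Its first array differed from the median of the other 11 by -7.48, and its spread over those 11 (SD 0.89) was wider than that of Ctrb1 (SD 0.48). Ctrb1, chymotrypsinogen B, was 3.79 on wild-type vehicle 1 and between 8.95 and 10.64 elsewhere. Among the elastases this difference was -6.94 for Cela3b, -4.89 for Cela2a and -3.92 for Cela1. For the carboxypeptidases Cpa1 and Cpb1, which trim proteins from the carboxyl end, it was -5.94 and -6.18. Cpa1 levels were 3.94, 9.83 and 10.28, then 9.55, 9.88 and 10.19, then 8.79, 10.04 and 10.34, and finally 10.24, 9.84 and 9.78, so that without the first array the whole range was 1.55.

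Lipid-digesting members were low on the same array. Pnlip, the triglyceride lipase of pancreatic juice, had levels of 2.79, 9.32 and 9.11 in wild-type vehicle mice, 8.75, 9.37 and 9.53 in wild-type IIAEK mice, 8.15, 9.53 and 9.73 in knockout vehicle mice, and 9.66, 9.25 and 9.0 in knockout IIAEK mice. Cel, the bile salt-activated lipase, was 1.89 on wild-type vehicle 1, 7.61 on knockout vehicle 1 and between 8.62 and 10.34 on the other arrays. Pla2g1b, a secreted phospholipase A2, had the largest difference from the median of the other 11 arrays among these 6 genes, -7.53 or 184-fold. This difference was -7.02 for Pnliprp1, -4.87 for Clps, the colipase that anchors Pnlip to fat droplets, and -4.16 for Pnliprp2. Pnlip and Clps varied little over the other 11 arrays (SD 0.46 and 0.50), and Pnliprp2 and Pla2g1b more (SD 0.88 and 0.89).

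Amy2a5, a pancreatic amylase, was among the members that differed less, with 7.16, 9.96 and 10.53, then 9.93, 10.22 and 10.19, then 9.82, 9.95 and 10.41, and finally 10.44, 10.10 and 10.11 in the 4 groups. It was the only member with 2 probes, and these disagreed: the dimmer probe read 2.75 on wild-type vehicle 1 and between 8.26 and 10.29 elsewhere, a far larger gap than the brighter probe. Amylase genes are also close copies of each other. Rnase1, the pancreatic ribonuclease, was 0.49 on the first array, and the other 11 lay between 5.43 and 7.66.

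Proteins of the zymogen granule and other secreted proteins held both the widest and the narrowest gaps among exocrine members. Cuzd1, a zymogen granule protein, had levels of -4.46, 3.39 and 2.04 in wild-type vehicle mice, 2.10, 3.5 and 3.59 in wild-type IIAEK mice, 1.61, 4.35 and 4.10 in knockout vehicle mice, and 3.85, 3.25 and 1.96 in knockout IIAEK mice. Its first array thus differed from the median of the other 11 by -7.85, or 231-fold. This difference was -6.61 for Sycn (syncollin), -5.89 for Gp2, a granule membrane glycoprotein, and -2.37 for Klk1, a tissue kallikrein. Reg1, a secreted lectin of the regenerating family, read 9.30, 9.75 and 10.08, then 9.62, 10.18 and 10.07, then 9.58, 10.06 and 10.28, and finally 10.43, 9.95 and 9.55. Its first array was still the lowest, but its difference from the median of the others was only -0.75, or 1.68-fold, and its range without that array was 0.89. Reg2, of the same family, varied more, with 0.03, 5.48 and 6.20, then 3.42, 6.66 and 7.0, then 3.47, 8.75 and 7.94, and finally 7.01, 5.99 and 6.29. Low values of Reg2 thus also occurred on wild-type IIAEK 1 and knockout vehicle 1.

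As a median over genes, the islet hormones were further below their usual level than the enzymes on both low arrays, although Iapp was not on wild-type vehicle 1. The hormones also had lower levels in general. Over the 11 arrays without wild-type vehicle 1, the median of the class mean was 3.39 for hormones and 8.35 for exocrine genes. What part probe brightness has in this gap was not tested. Ins2, which encodes insulin, had levels of -4.10, 5.02 and 6.29 in wild-type vehicle mice, 4.65, 4.25 and 7.46 in wild-type IIAEK mice, 2.67, 6.39 and 5.79 in knockout vehicle mice, and 6.34, 5.66 and 4.83 in knockout IIAEK mice. On wild-type vehicle 1 it differed from the median of the other 11 by -9.76, or 867-fold, the largest difference among the 33 members, and for Ins1, a close copy, this was -9.04, or 527-fold. Both insulin probes were well above background on that array. Iapp, which encodes amylin, read -1.03, 1.56 and 2.38, then 1.51, 1.22 and 3.52, then 0.04, 2.53 and 1.96, and finally 2.88, 2.34 and 0.61. Ppy, pancreatic polypeptide, read -7.52, -1.13 and -0.44, then -1.04, -1.33 and 1.44, then -5.36, 0.82 and 0.62, and finally -0.62, 0.19 and -4.11, and its signal on the first array of each vehicle group was not well above background. Low hormone values were shared by wild-type vehicle 1 and knockout vehicle 1, and Ppy was low on knockout IIAEK 3 as well. For each of the 4 hormones the groups overlapped in every pair of groups compared here. Of the hormones, Iapp differed least on wild-type vehicle 1 (-2.99).

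Hormones and enzymes did not keep a fixed ratio over the other arrays. On wild-type IIAEK 3 the hormones were a median of 1.80 above their medians over the 10 arrays without both low ones, while exocrine genes were 0.19 above and the transcription factors 0.92 above, and all 4 hormones had their highest value there. No exocrine gene had its highest value on that array: 12 of 26 peaked on knockout vehicle 2, 6 on knockout vehicle 3 and 4 on knockout IIAEK 1. The rest (Try4, Ctrb1, Cela2a and Amy2a5) peaked on wild-type vehicle 3. On knockout IIAEK 3 the median difference was -1.21 for hormones and -0.28 for exocrine genes. On wild-type IIAEK 2 it was -1.18 for hormones, with 13 of 26 exocrine genes below their medians. On knockout vehicle 1 it was -2.97 for hormones and -1.30 for exocrine genes. The difference between the classes was not tested.

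The 3 acinar transcription factors were lowest on the same arrays as the enzymes. Ptf1a had levels of -7.37, -1.06 and -1.35 in wild-type vehicle mice, -1.65, -1.27 and -0.39 in wild-type IIAEK mice, -3.77, -0.08 and -0.50 in knockout vehicle mice, and -1.36, -1.58 and -1.53 in knockout IIAEK mice. Rbpjl read -2.22, 2.41 and 2.90, then 1.71, 1.82 and 3.33, then 0.27, 3.81 and 2.90, and finally 2.29, 1.83 and 2.30. Bhlha15, also called Mist1, a factor of secretory cells that include plasma cells and acinar cells, read 0.43, 2.62 and 2.40, then 1.78, 2.07 and 2.91, then 0.78, 2.46 and 2.31, and finally 1.79, 1.71 and 1.56. On wild-type vehicle 1 the difference from the median of the other 11 arrays was -4.52 for Rbpjl and -1.63 for Bhlha15, and Ptf1a was not well above background there.

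**Figure D2:**
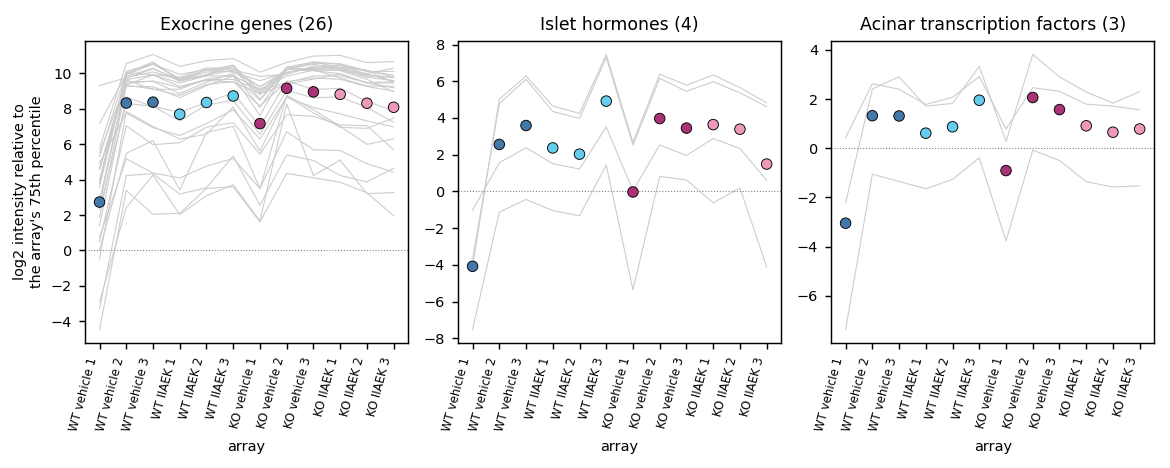
Levels by array for the 3 classes of members (log2 intensity relative to the array's 75th percentile; vertical scales differ between panels). Grey lines are single genes and points are class means, coloured by group; wild-type vehicle 1 is lowest in each panel and knockout vehicle 1 next, with means of 2.73 and 7.16 for exocrine genes.

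The spread of the members over arrays was far smaller without wild-type vehicle 1. The median SD of an exocrine gene was 1.84 over 12 arrays, 0.58 over the 11 without wild-type vehicle 1 and 0.37 over the 10 without knockout vehicle 1 as well. Islet hormones had 2.78, 1.30 and 1.0, and the transcription factors 1.59, 0.95 and 0.56. Over all features the median SD was 0.29, 0.29 and 0.30. An SD above 1 was found for 29 of 33 members against 2.46% of all features over 12 arrays, and for 6 members against 2.16% over 11.

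**Figure D3:**
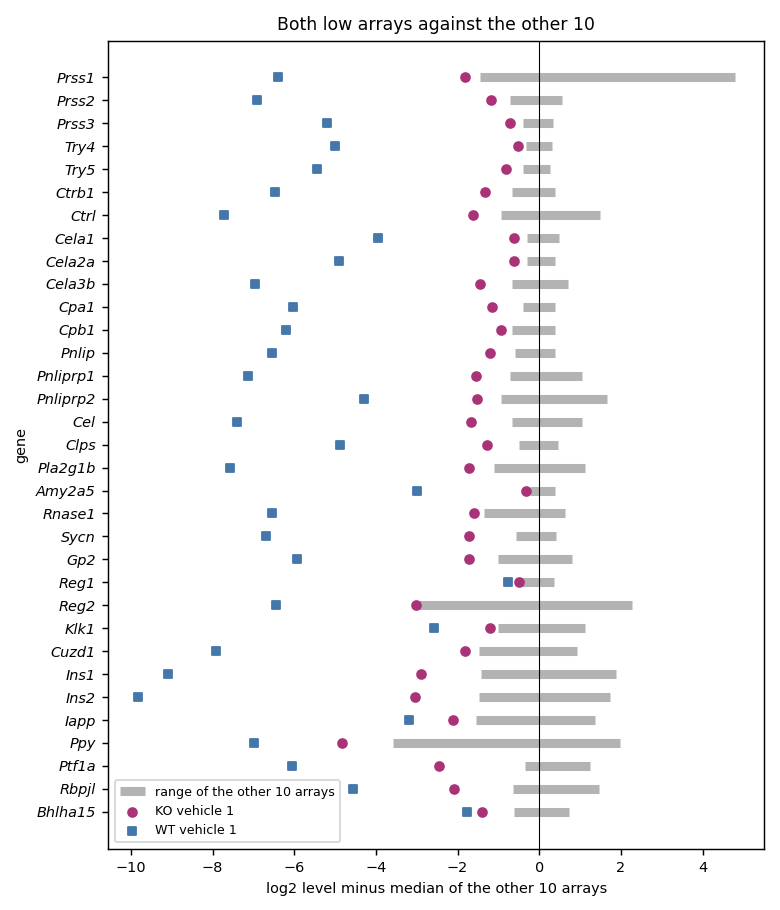
Difference of wild-type vehicle 1 (squares) and knockout vehicle 1 (circles) from each gene's median over the other 10 arrays, whose range is the grey bar (log2 units). Squares run from Reg1 at the shallow end to Ins2 at the deep end, and the circles of the 4 hormones lie further left than those of most enzymes.

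Other genes of the pancreas, from lists outside the members, were read on the same arrays. Of 12 other acinar genes, 11 were lowest on wild-type vehicle 1, where they averaged 1.39 against 4.91 to 7.01 on the other arrays. Cckar, the receptor through which cholecystokinin drives enzyme secretion, was -4.75 there and between -0.72 and 1.92 elsewhere. Spink1, a trypsin inhibitor, was 7.84 there and between 7.68 and 9.28 elsewhere, and Zg16, a granule lectin also made by intestinal goblet cells, was 8.43 there and between 9.04 and 10.17 elsewhere. Among 14 measured islet genes (Nkx6-1 did not pass the filter), G6pc2 and Slc30a8, both genes of beta cells, were not well above background on wild-type vehicle 1, knockout vehicle 1 and knockout IIAEK 3, and were well above it on the other 9 arrays, with values up to -0.17 and -1.17. The other 12, such as Gcg and Sst, which are also made by endocrine cells of the gut, had their lowest values on arrays other than wild-type vehicle 1. Gcg was nevertheless lowest on knockout vehicle 1 (0.27) and next lowest on wild-type vehicle 1 (0.43), and Pcsk2 read -1.14 on both. The 14 genes averaged -1.72 on wild-type vehicle 1, -1.34 on knockout vehicle 1 and -1.22 to -0.12 elsewhere. Their median difference between wild-type vehicle 1 and the median of the other 11 arrays was -0.27. The 9 duct genes averaged 2.74 on wild-type vehicle 1, within their range of 2.06 to 3.03 on the others.

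A search among the 15550 other named genes for levels most like the exocrine mean, by Pearson's r over the 12 arrays, returned several acinar genes among the closest 12. Among the closest were Pdia2, a protein disulfide isomerase of acinar cells (r = 0.997, or 0.986 over the 11 arrays without wild-type vehicle 1) and 2210010C04Rik (0.995 and 0.946). The others reported here were Aqp12 (0.993 and 0.958), Cela3a (0.990 and 0.914), Cabp2 (0.989 and 0.951), Cckar (0.989 and 0.952), Hamp2 (0.988 and 0.903), Gm5771 (0.988 and 0.883), Cnksr1 (0.987 and 0.978) and Amy2b (0.981 and 0.836). These values describe 12 arrays that share 1 very low array, and the points within an array share its scaling.

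Genes of other tissues that a duodenal sample can hold mostly did not share this order, with fat and plasma cell genes as exceptions in part. All 6 measured fat genes, among them Cidec, Cfd, Car3 and Lep, were lowest on wild-type vehicle 1, with an average of -2.26 there, -1.80 on knockout vehicle 1 and -1.39 to 0.54 on the other 10. Adipoq, a defining fat cell gene named here after its values were seen, was not well above background on both low arrays and was between -3.36 and -1.07 elsewhere. The 4 plasma cell genes averaged 4.25 on wild-type vehicle 1, their lowest array, and between 4.47 and 5.27 elsewhere. One of them, Derl3, named here after its values were seen, was lowest on wild-type vehicle 1 (1.28) and next lowest on knockout vehicle 1 (1.98), and the other 3 were lowest on other arrays. Lymphoid genes (5 genes, among them Ccl21a and Cxcl13) were highest on wild-type vehicle 1, at 2.56, then on wild-type vehicle 2, at 1.83, and between -1.86 and -0.36 elsewhere. Mucous genes of the stomach (9 measured, such as Tff2, Gkn3 and Tff1) averaged between 4.30 and 5.83 on 6 arrays (all 3 of wild type under vehicle, wild-type IIAEK 3, knockout vehicle 1 and knockout IIAEK 3) and between -2.01 and -0.55 on the other 6. The 4 partners of the pancreas in the duodenal wall, the enteropeptidase gene Tmprss15 and the hormone genes Cck, Sct and Gip, averaged between 4.02 and 4.59 on all arrays, with 4.34 on wild-type vehicle 1. Smooth muscle averaged 3.06 and enterocyte genes 7.58 there, within the ranges of the other arrays (2.23 to 4.12 and 7.49 to 8.14). What part fat, plasma cells, lymphoid or stomach tissue in the samples have in the level of the members was not tested.

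**Figure D4:**
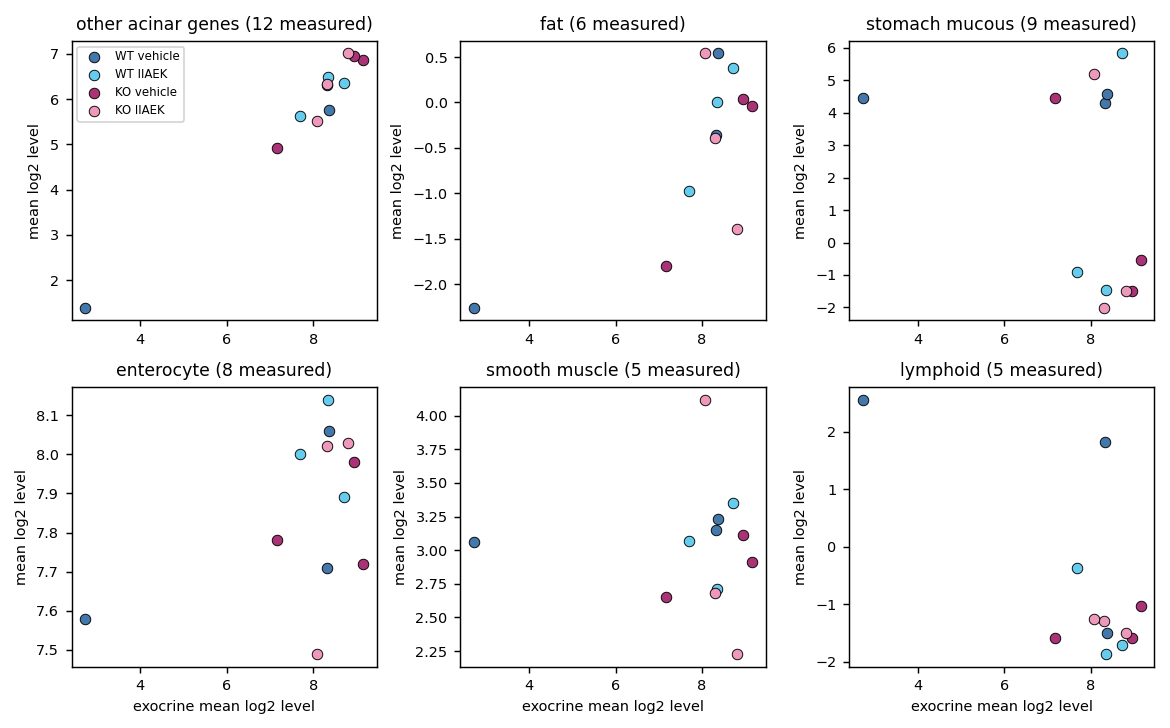
Mean level of 6 lists of other genes against the mean of the 26 exocrine members, 1 point per array, coloured by group (log2 intensity relative to the array's 75th percentile; each panel has its own vertical scale). The point far to the left is wild-type vehicle 1: other acinar genes and fat are lowest there, lymphoid genes highest, and the other lists lie within their range.

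Comparing IIAEK with vehicle in wild type asks whether the peptide alters duodenal expression. No member passed the test (0 of 33 at a Benjamini-Hochberg adjusted p under 0.05 by limma, with 0.0% of all features called), and 0 of 33 had an unadjusted p under 0.05, against 3.14% of all features. The exocrine genes had a median log2 fold change of 1.82 with all 26 above 0 (median standard error, SE, 1.32), against a median of 0.03 over all features (median SE 0.24). Islet hormones had a median of 2.76. Without wild-type vehicle 1 the exocrine median was -0.10 with 5 of 26 above 0, and the hormone median was -0.04. Without wild-type vehicle 2 or 3 instead, the exocrine median was 2.77 or 2.98. Prss2 had the smallest unadjusted p, with a fold change of 2.40 (SE 1.39, adjusted p = 0.999 by limma), and 0.20 (SE 0.53) without that array. Ins2 had the largest fold change, 3.05 (SE 2.18, adjusted p = 0.999 by limma), and -0.20 (SE 1.15) without that array, while Reg1 had the smallest, 0.25 (SE 0.29). Groups overlapped for all 33 members, and of all features 5.58% were higher and 3.69% lower with groups not overlapping. With wild-type vehicle 1 lowest for all 33, no member could be lower under IIAEK without overlap. Within slide 1, which holds the low array, the exocrine median was 2.75, and within slide 2 it was 0.35.

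In knockout mice the same comparison asks whether an effect of the peptide is seen without Akp3. Again no member was called (0 of 33, with 0.0% of all features called) and none had an unadjusted p under 0.05 by limma (0 of 33, against 1.91% of all features). The exocrine median was 0.05 with 15 of 26 above 0, and the hormone median 0.53. Without knockout vehicle 1 the exocrine median was -0.48, and without knockout IIAEK 1 it was -0.10. Prss1, high on knockout vehicle 2, was at -0.86 (SE 1.80, adjusted p = 1.0 by limma), and Ins2 at 0.66 (SE 2.18). The fit shares 1 spread over all groups, so wild-type vehicle 1 enters these standard errors. Without that array the SE was 1.03 for Ins2, and the exocrine median SE was 0.47 in place of 1.32. In that fit 0 of 33 members were called, with 0 of all 26107 features called. All 33 members overlapped between groups, against 1.98% of features higher and 2.7% lower without overlap. For the 31 members lowest on knockout vehicle 1 among these arrays, a lower level under IIAEK without overlap was not possible. A block for slide gave an exocrine median of 0.43, slide 1 alone 1.37 and slide 2 alone -0.72. On slide 1, knockout IIAEK 1 and 2 face knockout vehicle 1 alone, where the exocrine average was 7.16. Within slide 2, where 2 vehicle arrays face knockout IIAEK 3 alone, 4 of 33 members were called by limma, with 0.977% of all features called (255 of 26107): Cuzd1 (-2.26, adjusted p = 0.00865), Rnase1 (-1.93, adjusted p = 0.0333), Ppy (-4.83, adjusted p = 3.9e-04) and Iapp (-1.63, adjusted p = 0.0486). These rest on 1 array that is assumed to vary like the other groups, and on 1 residual degree of freedom between arrays.

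Comparing the genotypes under vehicle addresses the effect of the missing Akp3 in the absence of peptide, and it uses the same wild-type vehicle arrays as the comparison in wild type. No member was called (0 of 33, with 0.00766% of all features called), and 0 of 33 had an unadjusted p under 0.05 by limma against 3.85% of all features. The exocrine median was 1.85 with all 26 above 0, against 0.03 over all features, and the hormone median was 2.01. Without wild-type vehicle 1 these were -0.05 (12 of 26 above 0) and -0.62 (0 of 4 above 0). Leaving out wild-type vehicle 2 or 3 instead gave exocrine medians of 2.82 or 3.00. Prss1 had the smallest unadjusted p and the largest fold change, 3.47 (SE 1.80, adjusted p = 0.993 by limma), and 1.38 (SE 1.5) without that array, while Bhlha15 had the smallest fold change, 0.04 (SE 0.57) and -0.65 (SE 0.46). Groups overlapped for all 33 members, against 8.5% of features higher and 5.87% lower without overlap. Here too no member could be lower without overlap, as wild-type vehicle 1 was lowest for all 33. With slide as a block the exocrine median was 1.48. Slide 1 alone, where knockout vehicle 1 alone faces wild-type vehicle 1 and 2, gave 1.92, and slide 2 alone 0.58. Within slide 2, where wild-type vehicle 3 alone faces 2 knockout arrays, 1 member was called, Cuzd1 (2.18, adjusted p = 0.0117 by limma), with 0.306% of all features called (80 of 26107).

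**Figure D5:**
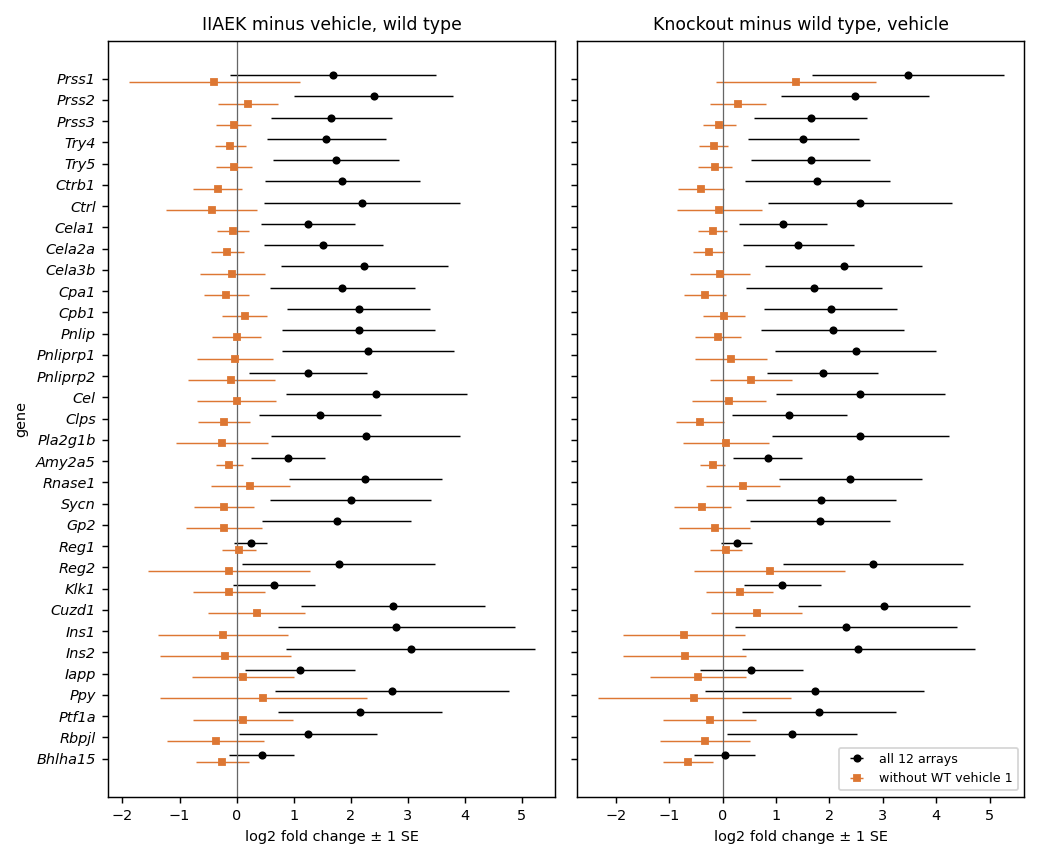
Log2 fold change of each member with its standard error (bars, 1 SE) for IIAEK against vehicle in wild type and for knockout against wild type under vehicle, from all 12 arrays (circles) and without wild-type vehicle 1 (squares). Circles lie above 0 in both panels and squares around 0, with exocrine medians of 1.82 and 1.85 for the circles and -0.10 and -0.05 for the squares.

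Under IIAEK, where neither group holds a low array, knockout and wild type had exocrine averages of 8.40 (SD 0.37, n = 3) and 8.25 (SD 0.52, n = 3). No member was called (0 of 33, with 0.00766% of all features called) and 0 of 33 had an unadjusted p under 0.05 by limma, against 1.31% of all features. The exocrine median was 0.10 with 22 of 26 above 0, and the hormone median -0.01. The exocrine median was -0.13 without wild-type IIAEK 1 and -0.05 without knockout IIAEK 1. Bhlha15 had the smallest unadjusted p, at -0.57 (SE 0.57, adjusted p = 1.0 by limma). Ppy was lowest at -1.20 (SE 2.05) and Prss1 highest at 0.91 (SE 1.80). These standard errors too draw on the spread of all 12 arrays: without wild-type vehicle 1 they were 1.62 and 1.34, and the exocrine median SE was 0.47 in place of 1.32. In that fit 0 of 33 members were called, with 2 of all 26107 features called. No member was without overlap between groups, against 1.65% of features higher and 2.19% lower. Within slide 1 the exocrine median was 0.48, within slide 2 -0.57, where 1 array faces 1 array. There 1 member was called, Ppy (-5.55, adjusted p = 0.00207 by limma), with 0.0536% of all features called (14 of 26107); its spread comes from the pair of knockout vehicle arrays, the only group with more than 1 array on that slide.

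The difference between genotypes in the response to IIAEK called no member (0 of 33, with 0.0% of all features called; 0 of 33 at an unadjusted p under 0.05 by limma, against 1.52% of all features). The exocrine median of this difference was -1.78 with 0 of 26 above 0 (median SE 1.87), against -0.04 over all features. Without wild-type vehicle 1 it was 0.17 with 16 of 26 above 0 (median SE 0.71), and it was -2.77 or -2.92 without wild-type vehicle 2 or 3. Cuzd1 had the smallest unadjusted p, at -3.07 (SE 2.28, adjusted p = 1.0 by limma), and -0.68 (SE 1.14) without that array. Within slide 1 the exocrine median was -1.40, within slide 2 -1.22, where Cuzd1 (-3.80, adjusted p = 0.0124) and Ppy (-6.70, adjusted p = 0.0038) were called by limma, with 0.134% of all features called (35 of 26107). On slide 2, 3 of the 4 groups are single arrays. A p that misses the threshold does not show that groups are alike.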

How the data were processed

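One-colour (Cy3) Agilent arrays were read from the deposited scanner files, made with Feature Extraction 10.7.3.1 per the file headers, whose genome build is mm9. The deposited processed intensity is background-corrected but not scaled between arrays, per the file headers. The authors' deposited value table holds log2 values whose making is not stated. It matched log2 processed intensity minus the array's 75th percentile, centred on each probe's median (r of at least 0.999996 on each array), so direction and log2 scale are known and levels cannot be read from it. Its column medians lay between -0.093 and 0.126.

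Control spots (3671 of 62976) and spots flagged as outliers were dropped, and 22 of 56605 probes were lost by it. Repeated spots were averaged as log2 values before the array's 75th percentile was subtracted. Unversioned accessions were looked up in a RefSeq table of GRCm38.p6, which named 32978 of 56583 probes (22905 genes). Probes were kept if some group had all 3 arrays well above background by the deposited flag (32925 probes), and the brightest probe stood for a gene. Of 26107 features, 10524 have no gene name. The model, with 1 mean for each group and all 12 arrays, was run in limma 3.58.1 under R 4.3.3 with lmFit and trended eBayes. Tests are two-sided, adjusted by Benjamini-Hochberg over 26107 features, for 5 comparisons, and the code was tested on simulated data. The number of arrays limits the precision. Each group is 3 mice per the labels.

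Groups share replicate numbers. Deviations from group means correlated above 0.1 between all same-numbered arrays for wild-type vehicle with wild-type IIAEK (0.361, 0.165 and 0.430) and with knockout vehicle (0.539, 0.121 and 0.178), and not in the other comparisons; the labels do not say what a number marks. All members are named, with any gene of the other acinar, other islet and duodenal partner lists, up to 4 of the brightest genes of each other tissue list, and the 12 genes most like the exocrine mean, some of which are not reported here. Members and lists were chosen with earlier results of these data known. Alternatives tried were normexp, quantile and median scaling, no filter on dim probes, the mean of a gene's probes, no intensity trend, array weights, slide or replicate as a block, each slide alone, the authors' value table, and leaving out arrays.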

Additional observations from a re-analysis of the deposited data

How the results depend on the processing

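No member was called in any of the 5 comparisons under any setting run except slide 2 alone, where 4 were called for IIAEK in knockout, 1 between genotypes with vehicle, 1 between genotypes with IIAEK and 2 for the difference in response, beside 255, 80, 14 and 35 of all features. That setting has 5 arrays and lone arrays assumed to vary like the rest. Within slide 1, where knockout vehicle is a lone array, features were called as well, but no member. Without wild-type vehicle 3, 17 features were called for IIAEK in wild type and 18 for knockout under vehicle, none of them members. With replicate number as a block, 0 members were called in each comparison. Of all 26107 features, that fit called 2 when the genotypes were compared on vehicle and 2 on IIAEK. It called 0 features in the remaining comparisons. Each number occurs once in every group, so this block could not change the fold changes (exocrine median 1.82 in wild type). With array weights, which stopped before reaching their tolerance, 0 members but 3928 features were called for IIAEK in knockout and 564 for knockout under vehicle; the cause was not tested. The exocrine median moved by over the spread of the arrays to 1.37 for IIAEK in knockout within slide 1 and to -0.57 for knockout under IIAEK within slide 2. Leaving out 1 array at a time gave exocrine medians from -0.10 to 2.98 for IIAEK in wild type, -0.48 to 0.38 in knockout, -0.05 to 3.00 for knockout under vehicle, -0.13 to 0.25 under IIAEK and -2.92 to 0.17 for the difference; the ends near 0 in wild type, under vehicle and for the difference come without wild-type vehicle 1, and the far ends without wild-type vehicle 3 (2.77, 2.82 and -2.77 without wild-type vehicle 2). Without wild-type vehicle 1 the median SD over arrays was 0.58. Without wild-type vehicle 1 and knockout vehicle 1 together, a setting added after the levels were seen, the exocrine medians were -0.10, -0.48, 0.51, 0.10 and -0.47. Wild-type vehicle 1 stayed lowest for 33 members under normexp and median scaling and for 32 under quantile scaling, and knockout vehicle 1 lowest of the other 11 for 31, 31 and 30.

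Signs of named, uncalled genes turned in some settings, with no cause tested. For IIAEK in knockout Ins2 was -1.26 within slide 2, -0.48 without both low arrays and from -0.48 to 1.38 with 1 array left out, and Prss1 was 2.49 within slide 1 and from -2.39 to 0.91. In wild type Ins2 was -0.20 without both low arrays and from -0.20 to 4.99, and Reg1 was -0.01 within slide 2; its difference between genotypes was 0.24 within slide 1. For knockout under IIAEK Ppy was 0.92 with array weights, 0.97 within slide 1 and from -2.06 to 0.10, and Prss1 was -0.43 within slide 2. Bhlha15 under vehicle was -0.10 with array weights, -0.24 in the fit blocked on slide, -0.74 on slide 1, -0.01 on slide 2, -0.12 without both low arrays and from -0.65 to 0.57. Signals near background, as for Ppy, Ptf1a, G6pc2, Slc30a8 and Adipoq on wild-type vehicle 1, limit how far those differences can be read.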
